A study of Mus musculus with 12 samples.

Results

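Gene expression was compared between the proximal small intestine of Bmpr1a cKO mice (a conditional knockout of the BMP receptor gene Bmpr1a) and the distal small intestine of WT (wild-type) mice. These 2 groups lie at opposite corners of the study, so genotype and segment changed together. The comparison used 6 of the 12 libraries, 3 from each group, and all 17175 genes of the deposited table. The other 6 libraries, 3 of WT proximal and 3 of cKO distal intestine, served to split each difference into a genotype and a segment term. Every library was made from total RNA of small intestine, and the stated purpose of the study was to link epithelial BMP signalling to the differing length of villi between segments. The promoter that drives Cre, the age, strain and number of animals and the exact position of each segment were not given in the sources used here. No label says that the 3 libraries of a group are from different animals, and a p-value here reflects only how far these samples spread, in part perhaps for technical reasons.

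Bone morphogenetic proteins (BMPs) are secreted signals that bind pairs of type I and type II receptors, which phosphorylate Smad1, Smad5 and Smad9. These Smads join Smad4 in the nucleus and switch on targets such as the Id genes and Smad6. In the intestine BMP signals are strongest along the villus and oppose Wnt signals, which keep crypt cells dividing. The proximal segment absorbs iron, folate, sugars and fat, the distal segment recovers bile acids and vitamin B12, and transcription factors such as Gata4 and Pdx1 mark the proximal end.

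Values are scaled read counts, in which each library is divided by its own size factor. A difference is cKO proximal minus WT distal on the log2(value + 1) scale, with its standard error (SE), tested with limma and called at a Benjamini-Hochberg adjusted p under 0.05 over all genes. Depth was 11242024 to 14504077 recovered reads per WT distal library and 16661259 to 17388612 per cKO proximal library. Mitochondrial transcripts took 9.75 to 14.82% of reads in cKO proximal and 22.29 to 37.66% in WT distal libraries. The means were 11.96% ± 2.6 and 29.83% ± 7.69 (SD, n = 3 each), and the exact two-sided permutation test gave p = 0.1, the smallest that 3 against 3 libraries allow. One library of the comparison, cKO proximal 1, had 0 reads of the Y-linked genes Kdm5d, Uty, Ddx3y and Eif2s3y, and the other 5 had reads of all 4. Among the libraries used only for the terms, cKO distal 1 also had 0 reads of these 4 genes. Every WT library had reads of all 4, so both libraries without them lie on the cKO side of the genotype term. The tissue label was checked on 12 genes of intestinal epithelium, whose summed value was 272090 to 314760 in cKO proximal and 165668 to 278291 in WT distal libraries.

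Of the 17175 genes, 6623 (38.6%) differed, 3626 higher (21.1%) and 2997 lower (17.4%) in cKO proximal intestine. With a difference of at least 2-fold as well, 4625 genes (26.9%) remained, 2113 higher and 2512 lower. Changes of at least 8-fold numbered 255 upward and 422 downward. The median over all genes was 0.03. The libraries of both groups did not overlap in 8534 genes (49.7%). Along the axis of greatest variance (39.1%) WT distal libraries lay at 82.2 to 112.6 and cKO proximal libraries at -79.7 to -71.9. Without cKO proximal 1, the library of the comparison with no Y-linked reads, 5383 genes passed. Adding the mitochondrial share to the model as a covariate left 2109, and its part in these differences was not tested. That fit takes its slope from the spread within the 4 groups, and the shares of the compared groups do not overlap, so every value given with this covariate is an extrapolation.

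Each difference is by construction the sum of a genotype effect averaged over segments (cKO minus WT) and a segment effect averaged over genotypes (proximal minus distal). The genotype term passed for 5562 genes (32.4%), 3082 higher and 2480 lower. The segment term passed for 5021 genes (29.2%), 2682 higher and 2339 lower. With same-numbered libraries of a genotype as a random block 4682 and 5948 genes passed. Both terms share libraries with the comparison itself, so they are given as values beside it and not as support for it. An averaged term can also arise where a single group stands apart, so a term names no cause.

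**Figure D1:**
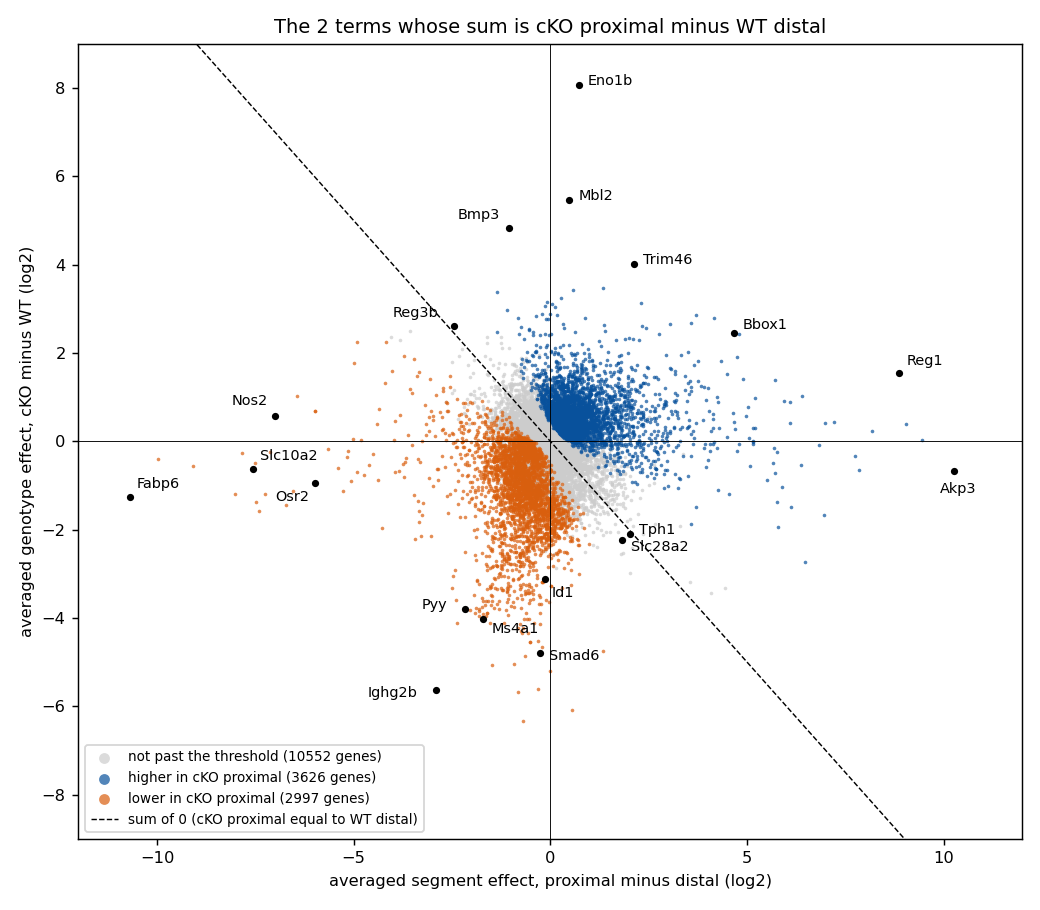
Each point is a gene, with the averaged segment effect (log2) on the x axis and the averaged genotype effect (log2) on the y axis. Blue genes were higher in cKO proximal intestine (3626), orange genes lower (2997) and grey genes not called, and the dashed line marks a sum of 0. Fabp6 and Akp3 lie out along the segment axis, Eno1b and Ighg2b far from 0 on the genotype axis, and Reg3b and Tph1 close to the dashed line.

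The 12 highest differences in cKO proximal intestine, among genes with a mean of at least 50 and no overlap between groups, had a segment term above the genotype term in every case except Eno1b. Tmprss15, which encodes enteropeptidase, the enzyme that activates trypsinogen (chr16:78953008-79091097, minus strand), had scaled counts of 3128, 3791 and 4042 in the cKO proximal libraries and 1.22, 26.7 and 1.05 in the WT distal ones. Its difference was 9.50 ± 0.73 (SE, adjusted p = 5.97e-07), with a segment term of 9.46 and a genotype term of 0.04. Pdx1, a transcription factor of pancreas and duodenum, stood at 1151, 1300 and 1034 against 4.87, 24.7 and 1.05, a difference of 7.42 ± 0.64 (adjusted p = 1.72e-06). A lack of overlap was a condition of the choice of both genes, and WT distal 2 was the highest of the WT distal libraries.

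Reg1, a secreted lectin-like protein, was at 112621, 164394 and 92586 in cKO proximal and 36.5, 564 and 30.6 in WT distal libraries, a difference of 10.42 ± 0.78 (adjusted p = 5.28e-07). Its genotype term of 1.56 (adjusted p = 0.0441) added to a segment term of 8.86. The alkaline phosphatase gene Akp3 had 51021, 101533 and 64361 against 17.1, 1405 and 27.4, a difference of 9.59 ± 1.11. Again WT distal 2 stood above the other WT distal libraries, and below each cKO proximal library, as the limit of no overlap required. Sult6b2 (a sulfotransferase, 9.45), the proton channel gene Otop3 (8.41), the transcription factor gene Onecut2 (7.38) and the transporter gene Slc16a9 (7.20) rose with genotype terms between -0.66 and 0.41, none of which passed.

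Anxa10, an annexin, had 0 reads in all 3 WT distal libraries and 146, 501 and 632 in the cKO proximal ones, at least 129.3-fold higher against a floor of 3 reads per library. Bbox1, the last enzyme of carnitine synthesis, was at 1044, 1063 and 1460 against 6.09, 19.5 and 3.16, a difference of 7.12 ± 0.49 (adjusted p = 2.53e-07). Both of its terms passed, 4.66 for segment and 2.46 for genotype (adjusted p = 0.000155). Gsta2, a glutathione transferase with close paralogs among which reads can be split, differed by 7.10 ± 0.43, with a genotype term of 1.40 (adjusted p = 0.00365).

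The 12 lowest differences under the same limits included 4 alpha-defensin genes of Paneth cells and Ighg2b, an immunoglobulin gene. Only Ighg2b of these 12 had a genotype term more negative than its segment term. Fabp6, the ileal bile acid binding protein (chr11:43596049-43601540, minus strand), had scaled counts of 12.1, 5.3 and 3.73 in cKO proximal and 30792, 18203 and 44132 in WT distal libraries. The difference of -11.96 ± 1.07 (adjusted p = 2.41e-06) was the most negative of the genes named. Slc10a2, the sodium-dependent bile acid transporter of the ileal brush border (chr8:5083219-5105351, minus strand), was at 8.08, 5.3 and 10.2 against 1605, 2465 and 4095, a difference of -8.20 ± 0.37 (adjusted p = 1.33e-08). That the groups did not overlap was a condition of the choice of both genes, and neither genotype term passed (-1.27 and -0.63).

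Slc5a8, a monocarboxylate transporter, had 0 reads in all 3 cKO proximal libraries and 1458, 1388 and 2052 in the WT distal ones, at least 544-fold lower. Slc25a48, a mitochondrial carrier, likewise had 0 reads against 447, 464 and 787, at least 188.7-fold lower. The phospholipase gene Plb1 (-10.36 ± 0.77), the phosphate transporter gene Slc34a2 (-7.99 ± 0.92) and Saa1, a serum amyloid protein (-8.17 ± 0.86), also fell. Saa1 was even across WT distal libraries, at 752, 827 and 753.

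**Figure D2:**
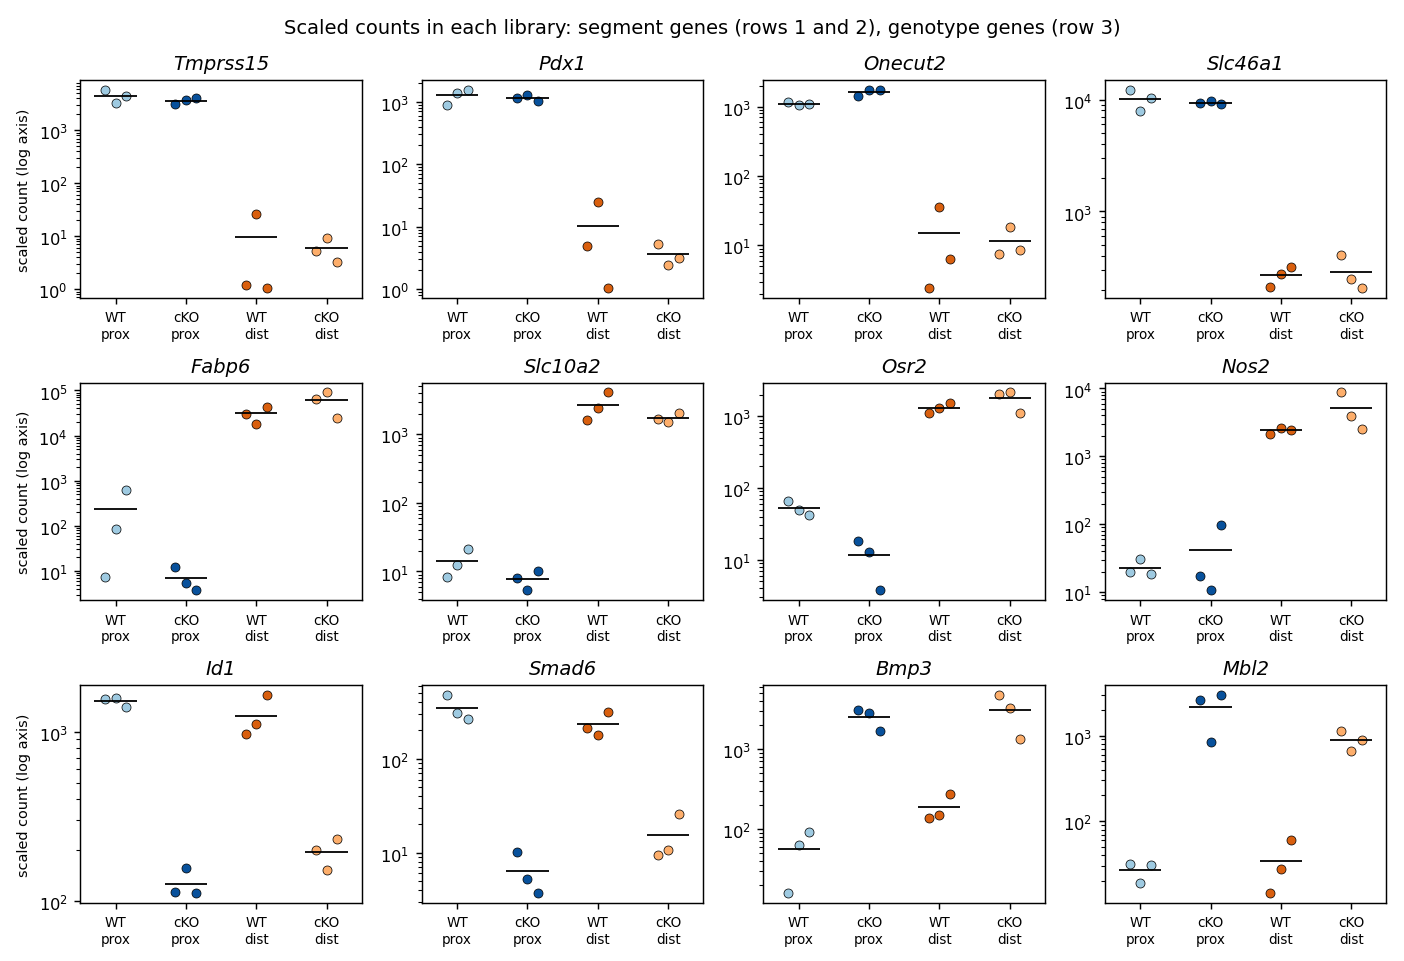
Scaled counts (log axis) of 12 genes in each of the 12 libraries, with a line at each group mean. Proximal genes such as Tmprss15 and distal genes such as Fabp6 separate by segment, and in the bottom row Id1 and Smad6 are low, and Bmp3 and Mbl2 high, in both cKO groups.

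Promoter windows (the 250 bases before the start site, RefSeq GRCm38.p6) were found for 10 of the 12 genes named for the highest and 11 of the 12 named for the lowest differences. Both strands were searched for AGATAA, known from factors of the GATA family, which 10% of all 32851 windows hold, and for TTTATNG, known from CDX factors, which 9.8% hold. They were also searched for CAAAGTCCA, known from HNF4 (0.4% of windows), and for GGCGCC, known from Smads (9.6%). The reverse of the CDX letters can overlap a TATA box. Among the lower genes 6 windows held the CDX letters (Defa20, Defa21, Defa22, Defa32, Plb1 and Slc10a2), and among the higher genes 2 (Gsta2 and Tmprss15). The Smad letters were in 1 lower gene, Slc34a2. The letters of the GATA family were in 2 windows of higher genes (Bbox1 and Sult6b2) and in 0 of lower ones. The alpha-defensin promoters are near copies of each other, so these matches are not independent, and a match describes letters and shows no binding. Shown for the reader are a distal and a proximal gene with 3 CDX matches each, 1 gene each for the GATA and HNF4 letters, and 1 alpha-defensin gene, with the matched letters in capitals.
Slc10a2, chr8:5105288-5105537, minus strand: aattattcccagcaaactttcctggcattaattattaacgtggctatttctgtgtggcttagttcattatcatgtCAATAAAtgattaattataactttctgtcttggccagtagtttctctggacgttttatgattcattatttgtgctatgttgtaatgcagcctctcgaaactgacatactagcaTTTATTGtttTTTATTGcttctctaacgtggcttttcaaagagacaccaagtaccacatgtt
Fabp1, chr6:71199629-71199878, plus strand: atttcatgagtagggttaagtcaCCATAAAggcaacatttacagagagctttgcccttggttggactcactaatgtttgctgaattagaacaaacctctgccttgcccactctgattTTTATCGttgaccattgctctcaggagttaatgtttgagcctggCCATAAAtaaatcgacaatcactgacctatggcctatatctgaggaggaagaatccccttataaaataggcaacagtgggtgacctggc
Sult6b2, chr6:142804467-142804716, minus strand: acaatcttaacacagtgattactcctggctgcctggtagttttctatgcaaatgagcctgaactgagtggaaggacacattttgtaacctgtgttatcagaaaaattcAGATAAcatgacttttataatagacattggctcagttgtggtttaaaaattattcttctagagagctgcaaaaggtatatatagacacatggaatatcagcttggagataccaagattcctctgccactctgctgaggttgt
Treh, chr9:44672983-44673232, plus strand: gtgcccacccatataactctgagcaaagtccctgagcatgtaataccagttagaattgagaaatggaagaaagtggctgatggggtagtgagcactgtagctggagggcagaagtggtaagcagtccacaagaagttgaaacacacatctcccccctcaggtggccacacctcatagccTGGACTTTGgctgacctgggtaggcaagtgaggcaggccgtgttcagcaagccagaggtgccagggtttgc
Defa22, chr8:21162027-21162276, plus strand: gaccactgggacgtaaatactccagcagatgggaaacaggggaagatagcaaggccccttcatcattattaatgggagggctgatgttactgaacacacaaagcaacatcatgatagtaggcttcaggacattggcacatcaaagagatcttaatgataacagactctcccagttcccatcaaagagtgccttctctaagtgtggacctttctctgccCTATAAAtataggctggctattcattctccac
Slc10a2 fell and Fabp1 rose, and each holds the CDX letters 3 times. Sult6b2 holds the GATA letters 142 bases before its start and Treh the HNF4 letters 71 bases before its start. The single match of Defa22, 32 bases before its start, runs into the letters of a TATA box.

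Of 25 regional and enterocyte transcription factors, 10 rose and 5 fell. Over all genes 21.1% were higher and 17.4% lower, the shares to set beside this and each later list count. Besides Pdx1 and Onecut2, Gata4, which sets proximal enterocyte identity, rose from 483, 735 and 611 in WT distal to 3664, 3829 and 3907 in cKO proximal libraries, a difference of 2.66 ± 0.23 (adjusted p = 2.24e-06). The Gata4 segment term was 2.08 and its genotype term 0.57 (adjusted p = 0.0172). Osr2 was the factor with the most negative difference, at 18.2, 12.7 and 3.73 against 1119, 1304 and 1518, or -6.92 ± 0.42 (adjusted p = 8.05e-08). The bile acid receptor FXR gene Nr1h4 (-1.21 ± 0.24) fell as well. Higher factors numbered 4 with the mitochondrial covariate, and the list median of 0.28 turned to -0.10.

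Hox genes, which are expressed in order along the body axis, fell in 10 of 21 measured members and rose in 0, with a median of -1.05. That is 47.6% of the list, against 17.4% lower and 38.6% called over all genes. Hoxb9 was at 1.01, 1.06 and 1.86 in cKO proximal and 84, 133 and 187 in WT distal libraries, a difference of -5.82 ± 0.44 (adjusted p = 5.28e-07). Hoxb6 differed by -4.79 ± 0.42. When genes with a mean under 10 were left out 6 Hox genes passed, and with the mitochondrial covariate 5.

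Genes of iron, calcium and folate absorption rose in 12 of 14 measured members, with 0 lower and a median of 3.44. These members also include Slc19a3, Slc39a4 and Slc30a10, transporter genes of other vitamins or metals. The median terms were -0.05 for genotype and 2.85 for segment, and medians of terms need not sum to the median of the difference. Slc46a1, the proton-coupled folate transporter, stood at 9342, 9631 and 9214 in cKO proximal and 212, 276 and 320 in WT distal libraries, a difference of 5.14 ± 0.24 (adjusted p = 1.35e-08). Groups of the thiamine transporter gene Slc19a3 were also apart, as in 49.7% of all genes, with a difference of 6.75 ± 0.59.

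The iron genes differed in their genotype term. Slc11a2, the importer of iron at the brush border, was at 9814, 5303 and 9171 against 394, 420 and 562, a difference of 4.11 ± 0.34 (adjusted p = 1.28e-06), with a genotype term of 1.46 (adjusted p = 0.000526). Slc40a1, the iron exporter ferroportin, was at 6418, 10774 and 8262 against 527, 621 and 585, a difference of 3.85 ± 0.25 (adjusted p = 1.39e-07). Its genotype term was -1.94 (adjusted p = 8.16e-06), opposite in sign to that of Slc11a2.

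All 16 genes of sugar digestion and uptake rose, with a median of 2.11, beside median terms of 1.0 for genotype and 1.25 for segment. Treh, the brush border trehalase (chr9:44673233-44686305, plus strand), was at 14999, 15713 and 14846 in cKO proximal and 773, 804 and 2666 in WT distal libraries. It differed by 3.68 ± 0.45 (adjusted p = 3.37e-05), with 1.93 from genotype and 1.75 from segment. The fructose transporter gene Slc2a5, at 5573, 6311 and 5118 against 477, 692 and 1669, differed by 2.78 ± 0.38, and the glucose transporter gene Slc2a2 by 3.81 ± 0.52. WT distal 3 was the highest WT distal library for all 3 of these genes, still below every cKO proximal library. Such a lack of overlap held for 49.7% of all genes. With the mitochondrial covariate 8 of the 16 passed.

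In fat absorption and lipoprotein assembly 20 of 26 genes rose and 0 fell, with a median of 1.57. Fabp1, the fatty acid binding protein of proximal enterocytes and liver, was at 55653, 57807 and 41554 in cKO proximal and 1532, 1726 and 1831 in WT distal libraries, a difference of 4.92 ± 0.29 (adjusted p = 6.6e-08). The apolipoprotein genes Apoc2 (4.89 ± 0.28) and Apoa4 (3.76 ± 0.54) rose with it. Fabp1 had terms of 3.43 for segment and 1.48 for genotype (adjusted p = 0.000128). With the mitochondrial covariate 6 of the 26 passed.

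Fatty acid oxidation and ketogenesis followed, with 18 of 22 genes higher, 0 lower and a median of 1.18. Pdk4, a kinase that turns off pyruvate oxidation, was at 725, 730 and 874 against 21.9, 19.5 and 21.1, a difference of 5.15 ± 0.27 (adjusted p = 3.13e-08). The acyl-CoA dehydrogenase gene Acadl (2.33 ± 0.20) and the fatty acid hydroxylase gene Cyp4a10 (5.84 ± 0.48) were also called. Of the 22 genes 9 passed with the mitochondrial covariate.

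Retinoid genes rose in 8 and fell in 2 of 15 measured members. Adh1, an alcohol dehydrogenase that oxidises retinol, was at 23447, 21091 and 20433 in cKO proximal and 916, 744 and 882 in WT distal libraries, a difference of 4.68 ± 0.30 (adjusted p = 1.39e-07). Rbp2, the retinol binding protein of enterocytes, differed by 3.73 ± 0.36. Stra6, a membrane receptor for retinol binding protein, fell by 2.89 on the log2 scale, from 32.9, 47.3 and 25.3 to 6.06, 4.24 and 1.86.

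Drug and toxin metabolism had 23 of 26 genes higher and 0 lower, with a median of 3.33, beside median terms of 0.69 for genotype and 2.16 for segment. Gsta1, a glutathione transferase, was at 11906, 20030 and 13811 against 91.3, 356 and 284, a difference of 6.14 ± 0.41 (adjusted p = 1.94e-07). Gstm6 (4.79 ± 0.23) and the carboxylesterase gene Ces1f (3.56 ± 0.25) rose too, and in all 3 genes the genotype term passed as well, at 1.82 in Gsta1 and 1.22 in Gstm6.

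Brush border peptidases and amino acid transporters went both ways, 6 higher and 3 lower of 17 (52.9% called, against 38.6% over all genes). Naaladl1, an ileal dipeptidase, was at 3858, 3320 and 1311 in cKO proximal and 22433, 17530 and 60265 in WT distal libraries, a difference of -3.49 ± 0.54 (adjusted p = 0.000227). The metalloprotease meprin gene Mep1a differed by -1.89 ± 0.38, which was a segment term of -3.39 against a genotype term of 1.49 (adjusted p = 0.000953). Xpnpep2, an aminopeptidase, had the same pattern of signs, -2.91 and 1.05, and differed by -1.86 ± 0.41. Ace, angiotensin-converting enzyme, rose by 2.87 ± 0.57 with a genotype term of 2.0, and its adjusted p was 0.132 with the mitochondrial covariate. Without WT distal 3, which was the highest WT distal library for each of these 4 genes, 12 members were higher in place of 6, and with the mitochondrial covariate 1.

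The bile acid and FXR list split evenly, 4 higher and 4 lower of 11. Beside Fabp6 and Slc10a2 stood Fgf15, the hormone through which the ileum holds down bile acid synthesis in the liver. It had 0 reads in all 3 cKO proximal libraries and 43.8, 37 and 288 in the WT distal ones. Its group mean was at least 40.94-fold lower, a bound that rests mostly on WT distal 3. Nr0b2, which encodes the repressor SHP and is a textbook FXR target, went the other way, at 110, 190 and 245 against 1.22, 6.17 and 6.33, a difference of 5.15 ± 0.66 (adjusted p = 4.67e-05). The efflux pump gene Abcc2 differed by 2.59 ± 0.41. Of 6 vitamin B12 genes 2 rose and 2 fell. Under the other settings 0 to 2 were higher and 1 to 2 lower, and with the mitochondrial covariate 0 were higher and 1 lower. The receptor gene Cubn, at 528, 469 and 827 against 1756, 2307 and 9609, fell by 2.52 on the log2 scale (SE 0.56, adjusted p = 0.00304).

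BMP-induced genes fell in 7 of 11 measured members and rose in 0, with a median of -1.27, beside median terms of -1.65 for genotype and -0.38 for segment. Id1, an inhibitor of basic helix-loop-helix factors, was at 113, 156 and 112 in cKO proximal and 972, 1115 and 1650 in WT distal libraries, a difference of -3.26 ± 0.22 (adjusted p = 2.44e-07). Id3 was at 116, 155 and 137 against 1205, 1398 and 1425, a difference of -3.30 ± 0.17 (adjusted p = 2.92e-08). Both were about 10-fold lower (9.81 and 9.88 in the group means), with no overlap, as in 49.7% of all genes.

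Smad6, an inhibitory Smad that BMP signals switch on, was at 10.1, 5.3 and 3.73 against 214, 181 and 312, a difference of -5.06 ± 0.42 (adjusted p = 1.41e-06). Its genotype term was -4.79 and its segment term -0.27. The other inhibitory Smad gene, Smad7, which was picked after its values were seen and also answers to TGF-beta, fell by 0.81 on the log2 scale (SE 0.21, adjusted p = 0.007). With the mitochondrial covariate 4 of the 11 passed.

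Bmpr1a itself was higher, not lower, in cKO proximal intestine. Its scaled counts were 911, 833 and 1087 in cKO proximal and 438, 527 and 631 in WT distal libraries, a difference of 0.83 ± 0.19 (adjusted p = 0.00393). The segment term was 0.80 (adjusted p = 0.000662) and the genotype term 0.04 (adjusted p = 0.871). A count over the whole gene does not separate a transcript that lacks deleted exons from an intact one, so this value does not check the deletion. The difference had an adjusted p of 0.323 with the mitochondrial covariate.

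Of 10 BMP receptor and Smad genes, 5 rose and 1 fell. The type II receptor gene Acvr2a (1.32 ± 0.22), Bmpr2 (0.75 ± 0.20) and Smad1 (0.83 ± 0.19) rose, and Acvrl1, a receptor of endothelium, fell by 1.66 on the log2 scale (SE 0.41). None of the 10 passed with the mitochondrial covariate.

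Among 17 BMP ligands and antagonists 1 rose and 5 fell, or 35.3% against 38.6% over all genes. Bmp3, a ligand known to oppose other BMPs, was at 3043, 2833 and 1673 in cKO proximal and 138, 149 and 270 in WT distal libraries, a difference of 3.77 ± 0.56 (adjusted p = 0.000155). The genotype term of Bmp3 was 4.84 (adjusted p = 3.97e-06) and its segment term -1.06 (adjusted p = 0.057). Bmp8b, at 1.01, 2.12 and 7.46 against 43.8, 44.2 and 73.8, fell by 3.83 on the log2 scale (SE 0.81, adjusted p = 0.0021). The count of lower genes was 3 without WT distal 2, with voom weights or without genes of a mean under 10, and 0 with the mitochondrial covariate.

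Wnt target genes moved in both directions, 4 higher and 9 lower of 19, and 4 higher and 4 lower with the mitochondrial covariate. Axin2, a negative regulator that Wnt switches on, was at 46.5, 58.3 and 54.1 in cKO proximal and 390, 623 and 579 in WT distal libraries, a difference of -3.28 ± 0.36 (adjusted p = 1.55e-05). The Wnt effector Tcf7, which T cells also express, was at 97, 60.4 and 59.6 against 362, 730 and 523, a difference of -2.86 ± 0.38. In both genes the genotype term was the greater of the pair, -2.14 and -2.10.

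Sp5, another Wnt target, rose from 79.2, 117 and 113 to 511, 730 and 538, a difference of 2.52 ± 0.27 (adjusted p = 1.22e-05) with a segment term of 2.97. The ubiquitin ligase gene Rnf43 (1.44 ± 0.26) rose with a segment term of 1.53. Lrig1 (1.40 ± 0.23) and Ephb2 (1.26 ± 0.22), both expressed in crypt base cells, rose with genotype terms of 1.61 and 1.72. Cyclin D1 (Ccnd1) fell by 2.13 on the log2 scale, with a segment term of -2.79.

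Stem cell genes passed in 5 of 13 members (38.5%), a share near the 38.6% over all genes, with 2 higher, 3 lower and a median of -0.22. Smoc2, at 324, 348 and 223 against 49.9, 84.3 and 91.7, rose by 1.99 ± 0.38 with a genotype term of 2.54. Ascl2, a factor of Lgr5-positive stem cells, was at 1.01, 2.12 and 3.73 against 14.6, 18.5 and 19, and fell by 2.56 on the log2 scale (SE 0.60, adjusted p = 0.00415). Hopx, which marks reserve stem cells and also villus cells, rose by 2.23 ± 0.24. No member was lower with the mitochondrial covariate, where the adjusted p was 0.134 for Smoc2 and 0.417 for Ascl2.

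Cell cycle and DNA replication genes fell in 33 of 36 members and rose in 0, with a median of -1.73, beside median terms of -0.57 for genotype and -1.22 for segment. Uhrf1, which carries DNA methylation through replication, was at 110, 103 and 76.4 in cKO proximal and 615, 719 and 516 in WT distal libraries, a difference of -2.67 ± 0.26 (adjusted p = 5.86e-06). Top2a, a topoisomerase of dividing cells, was at 260, 168 and 197 against 1023, 1354 and 1157, a difference of -2.51 ± 0.26. The helicase subunit genes Mcm5 (-2.35 ± 0.26) and Mcm3 (-2.56 ± 0.29) and the methyltransferase gene Dnmt1 (-2.02 ± 0.20) fell alike, and in all 5 genes both terms passed and were negative. With the mitochondrial covariate 17 of the 36 passed. In these bulk samples fewer cells of a type and less RNA per cell cannot be told apart.

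Paneth cell genes, which encode the antimicrobial granules of crypt base secretory cells, fell in 15 of 18 members and rose in 0, with a median of -3.54. Defa22 (chr8:21162277-21163249, plus strand) was at 3.03, 13.8 and 25.2 in cKO proximal and 1525, 11391 and 9203 in WT distal libraries, a difference of -8.87 ± 0.91 (adjusted p = 8.22e-06). Defa32 had 0 reads in all 3 cKO proximal libraries and 331, 2025 and 2383 in the WT distal ones, at least 526.4-fold lower. Ang4, an angiogenin-type ribonuclease, fell by 5.16 on the log2 scale (SE 0.53). WT distal 1 was the lowest of its group for all 3. The alpha-defensins are near-identical copies, so counts of single members are uncertain, and with the mitochondrial covariate 7 of the 18 passed.

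Epithelial antibacterial defence genes split, 7 higher and 9 lower of 18. Nos2, inducible nitric oxide synthase, was at 17.2, 10.6 and 98.8 in cKO proximal and 2131, 2625 and 2464 in WT distal libraries, a difference of -6.44 ± 0.61 (adjusted p = 4.11e-06). Lypd8, which keeps flagellated bacteria off the epithelium, was at 95421, 71549 and 112545 against 13517, 12542 and 20231, a difference of 2.60 ± 0.38 (adjusted p = 0.000151), with a genotype term of 1.97. The cytokine gene Il18 rose by 3.01 ± 0.27 with both terms positive, 1.83 for segment and 1.17 for genotype.

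The Reg3 lectins, which bind bacterial walls, differed from each other. Reg3a was higher, at 7634, 9670 and 3399 against 578, 533 and 652, a difference of 3.43 ± 0.64 (adjusted p = 0.000875, and 0.205 with the mitochondrial covariate). Reg3g, added after its values were seen, fell by 2.44 on the log2 scale (SE 0.41, adjusted p = 0.000402). Reg3b did not pass, at 76850, 52170 and 100789 against 85843, 49747 and 68240, a difference of 0.16 ± 0.60 (adjusted p = 0.859). The genotype term was positive in all 3, at 2.15, 1.59 and 2.61, and the segment term was positive for Reg3a, -4.03 for Reg3g and -2.46 for Reg3b. The 3 genes are similar in sequence, which could split reads between them.

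Goblet cell genes passed in 2 of 19 members, a smaller share than the 38.6% over all genes. The peptidase inhibitor gene Spink4 (1.01 ± 0.27) and the glycosyltransferase gene Galnt3 (1.5 ± 0.26) rose, and with the mitochondrial covariate their adjusted p was 0.112 and 0.0865.

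Enteroendocrine genes, which encode gut hormones and the factors of hormone cells, rose in 13 and fell in 3 of 28. Cck, cholecystokinin, was at 1156, 1311 and 2240 in cKO proximal and 73.1, 79.1 and 70.6 in WT distal libraries, a difference of 4.32 ± 0.29 (adjusted p = 2.08e-07) with a segment term of 4.09. Ghrelin (Ghrl) rose by 3.74 ± 0.27. Both are hormones of the upper gut, and neither had a genotype term past the threshold.

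The 3 hormones that fell were neurotensin (Nts), peptide YY (Pyy) and secretin (Sct). Nts was at 19.2, 15.9 and 23.3 against 1151, 827 and 1101, a difference of -5.65 ± 0.31 (adjusted p = 4.41e-08). Pyy was at 2.02, 2.12 and 6.52 against 212, 214 and 383, a difference of -5.97 ± 0.38 (adjusted p = 1.29e-07), with a genotype term of -3.81 and a segment term of -2.17. Sct, at 84.8, 104 and 151 against 603, 411 and 804, fell by 2.40 on the log2 scale (SE 0.28) with a genotype term of -2.91 and a segment term of 0.52. None of the 3 had overlapping groups, which held for 49.7% of all genes. Leaving out cKO proximal 3, which held the highest Cck and Pyy of its group, left 7 of the list higher in place of 13, and the mitochondrial covariate left 5.

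B lineage genes (B and plasma cells) fell in 20 of 21 members and rose in 0, with a median of -4.99, the most negative of the 40 lists described. Ms4a1, which encodes the B cell surface protein CD20, was at 21.2, 59.3 and 29.8 in cKO proximal and 1141, 2948 and 1853 in WT distal libraries, a difference of -5.74 ± 0.59 (adjusted p = 8.99e-06). Pou2af1, a B cell coactivator, was at 32.3, 53 and 23.3 against 1561, 2668 and 1679, a difference of -5.76 ± 0.49. The summed value of the list was 1872 to 5429 in cKO proximal and 32238 to 71013 in WT distal libraries. Both terms were negative, -3.61 for genotype and -1.48 for segment in the median.

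Ighg2b, a constant region gene of IgG, was at 20.2, 18 and 23.3 against 6792, 11030 and 6790, a difference of -8.54 ± 0.58 (adjusted p = 2.28e-07). Its genotype term was -5.63. Genes of lymphoid follicle stroma and M cells fell too, 9 lower and 1 higher of 12, with 4 lower under the mitochondrial covariate. Cr2, the complement receptor of follicular cells, was at 9.09, 21.2 and 19.6 against 242, 1672 and 886, a difference of -5.42 ± 0.84, and its values varied widely between WT distal libraries. Ccl20, a chemokine of follicle-associated epithelium, rose from 160, 83.2 and 68.5 to 879, 679 and 809, a difference of 3.0 ± 0.39. Whether the sampled pieces held follicles is not given in the sources used here.

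T cell genes parted into 10 higher and 6 lower of 22. Their median was -0.01, beside median terms of -0.95 for genotype and 1.29 for segment. The genotype term passed downward in 12 members (14.4% over all genes) and upward in 0 (17.9%). The segment term passed upward in 15 (15.6% over all genes) and downward in 3 (13.6%). Gzma, a granzyme of cytotoxic lymphocytes, was at 10966, 4644 and 5792 in cKO proximal and 549, 1110 and 845 in WT distal libraries, a difference of 3.05 ± 0.45 (adjusted p = 0.000161) with a segment term of 2.86. Cd8a (2.47 ± 0.41), the gamma-delta receptor gene Trdc (2.25 ± 0.39) and the integrin gene Itgae (2.07 ± 0.38), all expressed by intraepithelial lymphocytes, also rose. Against these Cd2 (-4.11 ± 0.51), an adhesion molecule of T cells, and Cd28 (-2.66 ± 0.39), a costimulatory receptor, fell. With the mitochondrial covariate 1 gene of the list was higher and 3 lower, and the adjusted p was 0.0681 for Cd8a, 0.0799 for Trdc and 0.1 for Itgae.

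Macrophage and dendritic cell genes fell in 9 of 18 and rose in 0. C1qa, a complement subunit made by macrophages, was at 374, 249 and 197 against 1516, 1030 and 967, a difference of -2.12 ± 0.32 (adjusted p = 0.000193, and 0.0534 with the mitochondrial covariate). Its genotype term was -2.25 and its segment term 0.13. None of the 18 passed with that covariate.

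The class II transactivator gene Ciita was at 384, 116 and 38.2 in cKO proximal and 876, 2448 and 1565 in WT distal libraries, a difference of -3.63 ± 0.70. Of 10 class II presentation genes 5 fell and 0 rose. Lower members numbered 9 without cKO proximal 1, and 3 without WT distal 2, cKO proximal 2 or cKO proximal 3, with edgeR or with the mitochondrial covariate.

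Interferon response genes rose in 12 and fell in 1 of 19, with a median of 1.53. Usp18, which restrains interferon receptor signalling, was at 944, 272 and 1776 in cKO proximal and 56, 50.4 and 62.2 in WT distal libraries, a difference of 3.76 ± 0.68 (adjusted p = 0.000673). Ifit3 differed by 3.24 ± 0.56. The cKO proximal libraries were uneven, with the second the lowest and the third the highest for both genes, while WT distal libraries were close together. Of the 19 genes 4 were higher and 0 lower with the mitochondrial covariate, and the adjusted p was 0.0715 for Isg15 and 0.0742 for Ifit1, both interferon-induced genes.

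Fibroblast and telocyte genes fell in 9 and rose in 2 of 18. Adamdec1, a metalloprotease made by lamina propria fibroblasts and macrophages, was at 8.08, 6.36 and 13.1 in cKO proximal and 270, 507 and 637 in WT distal libraries, a difference of -5.50 ± 0.65 (adjusted p = 2.39e-05) with a genotype term of -4.85. F3, tissue factor, which telocytes express, rose from 13.4, 22.6 and 44.3 to 201, 324 and 168, a difference of 3.16 ± 0.39. The count of lower genes was 5 without WT distal 2, 14 without WT distal 3 or with edgeR, and 3 with the mitochondrial covariate.

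Smooth muscle genes fell in 6 and rose in 1 of 11, and endothelial genes fell in 8 and rose in 2 of 15. Desmin (Des) differed by -2.74 ± 0.47, from 139, 137 and 47.4 to 14.1, 13.8 and 13.1. Pecam1, an adhesion molecule of endothelium, differed by -2.57 ± 0.43, and Tek, the angiopoietin receptor, rose by 2.27 ± 0.42. Lower endothelial genes numbered 5 without WT distal 1 or cKO proximal 2. In each list 1 gene was lower with the mitochondrial covariate.

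Neighbouring organs were checked with their own markers. Of 11 pancreatic acinar genes 1 rose, Cela1 (1.65 ± 0.39), which intestinal epithelium also expresses, and 5 rose when WT distal 2 was left out. The summed value of the list was 645.3 to 1058 in cKO proximal and 179 to 1722 in WT distal libraries. Of 8 stomach and Brunner gland genes 5 rose and 0 fell. Tff2, a mucus peptide, was at 52.5, 139 and 36.4 in cKO proximal and had 0 reads in all 3 WT distal libraries, at least 23-fold higher, and with voom weights on recovered reads its adjusted p was 0.0524. The count of higher stomach genes was 3 when WT distal 1, WT distal 2, cKO proximal 1 or cKO proximal 3 was left out, and 2 with voom weights or the mitochondrial covariate. No member of the 6 erythrocyte genes passed limma.

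The highest averaged genotype effects were sought among called genes with a mean of at least 50 and no overlap, predicted genes left out. They were those of Eno1b, Mbl2, Bmp3, Trim46 and Hddc3. Eno1b, a retrocopy of the enolase gene Eno1, was at 2622, 2611 and 2274 in cKO proximal and 2.44, 3.08 and 11.6 in WT distal libraries, a difference of 8.80 ± 0.41 (adjusted p = 1.35e-08) with a genotype term of 8.07. Eno1 itself, added after its values were seen, did not pass, at 12071, 11992 and 10866 against 8000, 8701 and 9677 (adjusted p = 0.231). Eno1b is close in sequence to Eno1, so its count is uncertain.

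Mbl2, a mannose binding lectin of the complement system, was at 2566, 849 and 2979 against 14.6, 27.8 and 60.1, a difference of 5.95 ± 0.49 (adjusted p = 1.27e-06). The ubiquitin ligase family member Trim46, at 994, 704 and 652 against 13.4, 11.3 and 6.33, differed by 6.14 ± 0.45 and had terms of 4.03 for genotype and 2.12 for segment. Hddc3, a hydrolase, differed by 4.01 ± 0.36. That the lowest cKO proximal library lay above the highest WT distal one in all 3 was a condition of their choice.

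On the lower side of the genotype term, under the same limits, stood immunoglobulin genes and St6galnac1. St6galnac1, a sialyltransferase that acts on mucins, was at 1.01, 1.06 and 1.86 in cKO proximal and 297, 179 and 157 in WT distal libraries, a difference of -6.48 ± 0.37 (adjusted p = 5.69e-08) with a genotype term of -5.67. Igkv6-23, a variable segment of the kappa chain, fell by 5.52 on the log2 scale (SE 0.71), at 45.4, 2.12 and 7.46 against 315, 573 and 645. Reads of variable segments can be split between similar segments.

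**Figure D3:**
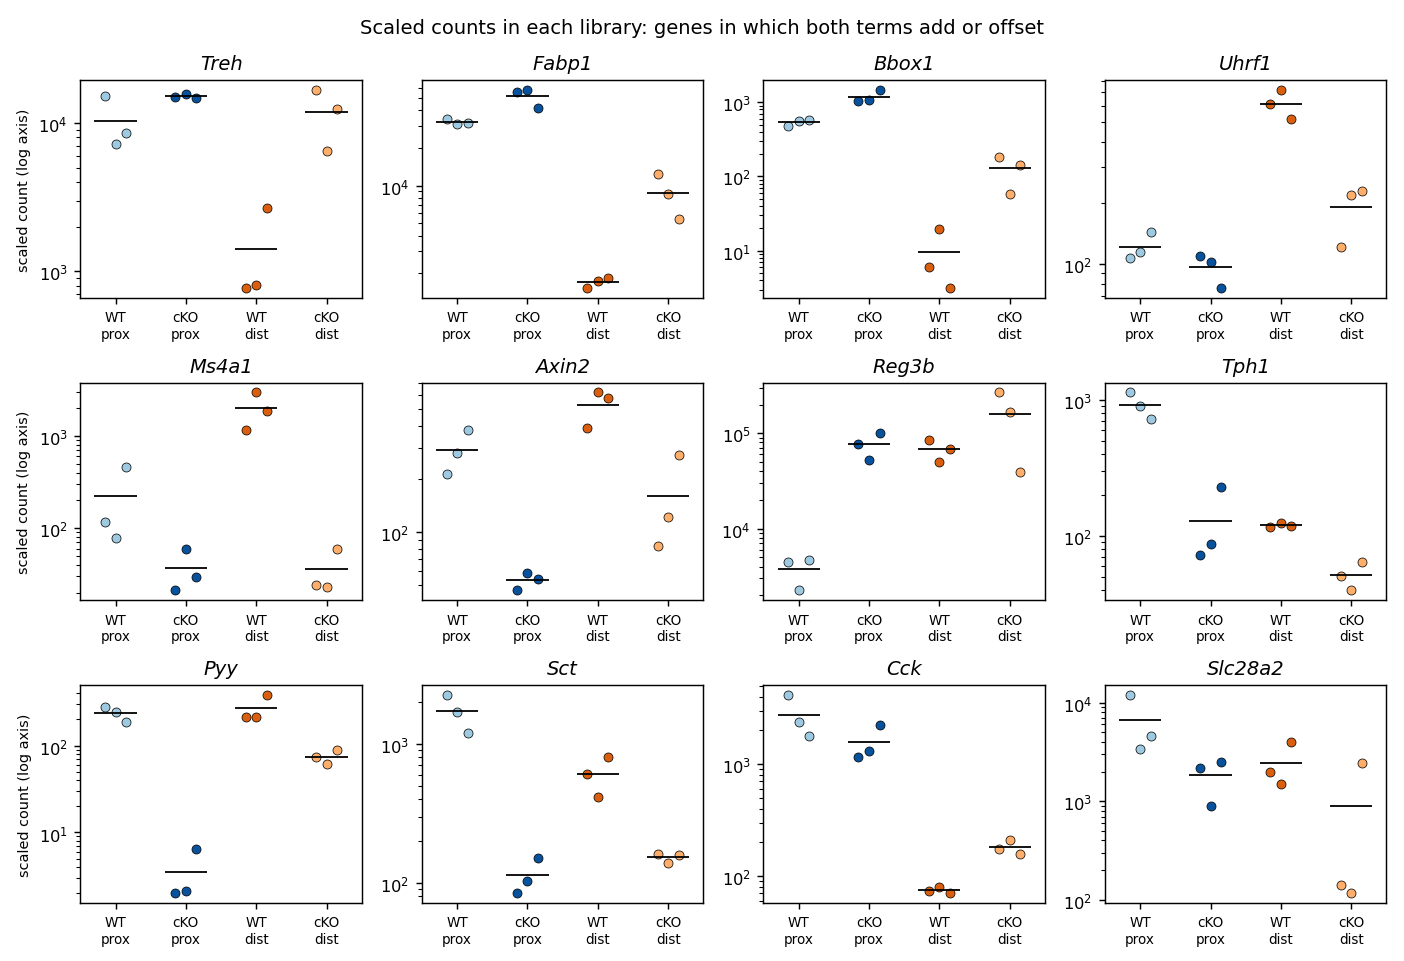
Scaled counts (log axis) of 12 genes in each of the 12 libraries, with a line at each group mean. Treh, Fabp1 and Bbox1 rise and Uhrf1, Ms4a1 and Axin2 fall with both terms, whereas Reg3b, Tph1 and Slc28a2 have overlapping cKO proximal and WT distal libraries while WT proximal or cKO distal stand apart.

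In a further set of genes the averaged terms offset each other, so that cKO proximal and WT distal libraries were not told apart. Averaged terms also offset where a single group stands apart, so they do not show separate effects of genotype and segment in these genes. These 6 genes were chosen for this pattern and their terms are a description. Tph1, the enzyme that starts serotonin synthesis in enterochromaffin cells, was at 72.7, 86.9 and 229 in cKO proximal and 117, 124 and 118 in WT distal libraries, a difference of -0.08 ± 0.36 (adjusted p = 0.878). Its segment term was 2.03 and its genotype term -2.11, and the WT proximal mean was 925 ± 210 (SD, n = 3).

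Slc28a2, a purine nucleoside transporter, was at 2153, 903 and 2484 against 1962, 1478 and 3945, with terms of 1.82 for segment and -2.23 for genotype. Wdr72 had a WT proximal mean of 218 ± 66.5 (SD, n = 3) and 1.01 to 6.52 in the cKO proximal and WT distal libraries. Fyb2 and the proline transporter gene Slc6a7 had the opposite signs, with genotype terms of 2.09 and 1.83 and segment terms of -2.26 and -1.94. Slc6a7 had a cKO distal mean of 686 ± 99.8 (SD, n = 3), against 98 ± 19.1 in cKO proximal and 148 ± 142 in WT distal.

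Cholesterol synthesis showed such an offset over a pathway. Its genotype term passed upward in 24 of 24 genes (17.9% over all genes). Its segment term passed downward in 16 (13.6% over all genes) and upward in 2 (15.6%). Over all genes the genotype term fell from 5562 passing to 1231 with the mitochondrial covariate and 3626 without both cKO libraries numbered 1. The count of 24 is not given here under those settings. The difference between cKO proximal and WT distal passed in 8 genes (33.3%, near the 38.6% over all genes), 6 higher and 2 lower, with a median of 0.20. Insig1, which holds back the activation of sterol-responsive transcription, was at 4434, 2284 and 4125 against 726, 558 and 987, a difference of 2.23 ± 0.33. The count of higher genes was 2 without WT distal 1, WT distal 2, cKO proximal 1 or cKO proximal 2, 11 without WT distal 3, and 1 with the mitochondrial covariate. Lower genes numbered 5 with TMM factors or voom weights, 6 with edgeR or DESeq2, and 4 without WT distal 2.

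Tuft cell genes, which mark chemosensory cells that sense parasites, gave a median of -0.07, beside median terms of -1.37 for genotype and 1.07 for segment. The genotype term passed downward in 13 of 20 (14.4% over all genes) and the segment term upward in 9 (15.6% over all genes). Only Gnat3, a taste G protein, and Hpgds, a prostaglandin synthase, passed here, both lower. Gnat3 was at 1.01, 4.24 and 2.8 against 91.3, 20.6 and 29.5, a difference of -3.52 ± 0.56. Hpgds differed by -0.90 ± 0.26 (adjusted p = 0.0141) and did not pass without cKO proximal 2 (0.0689) or with the mitochondrial covariate (0.225). With DESeq2 4 members were lower. The sign of the list median changed between settings, which ran from -0.90 to 0.63.

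**Figure D4:**
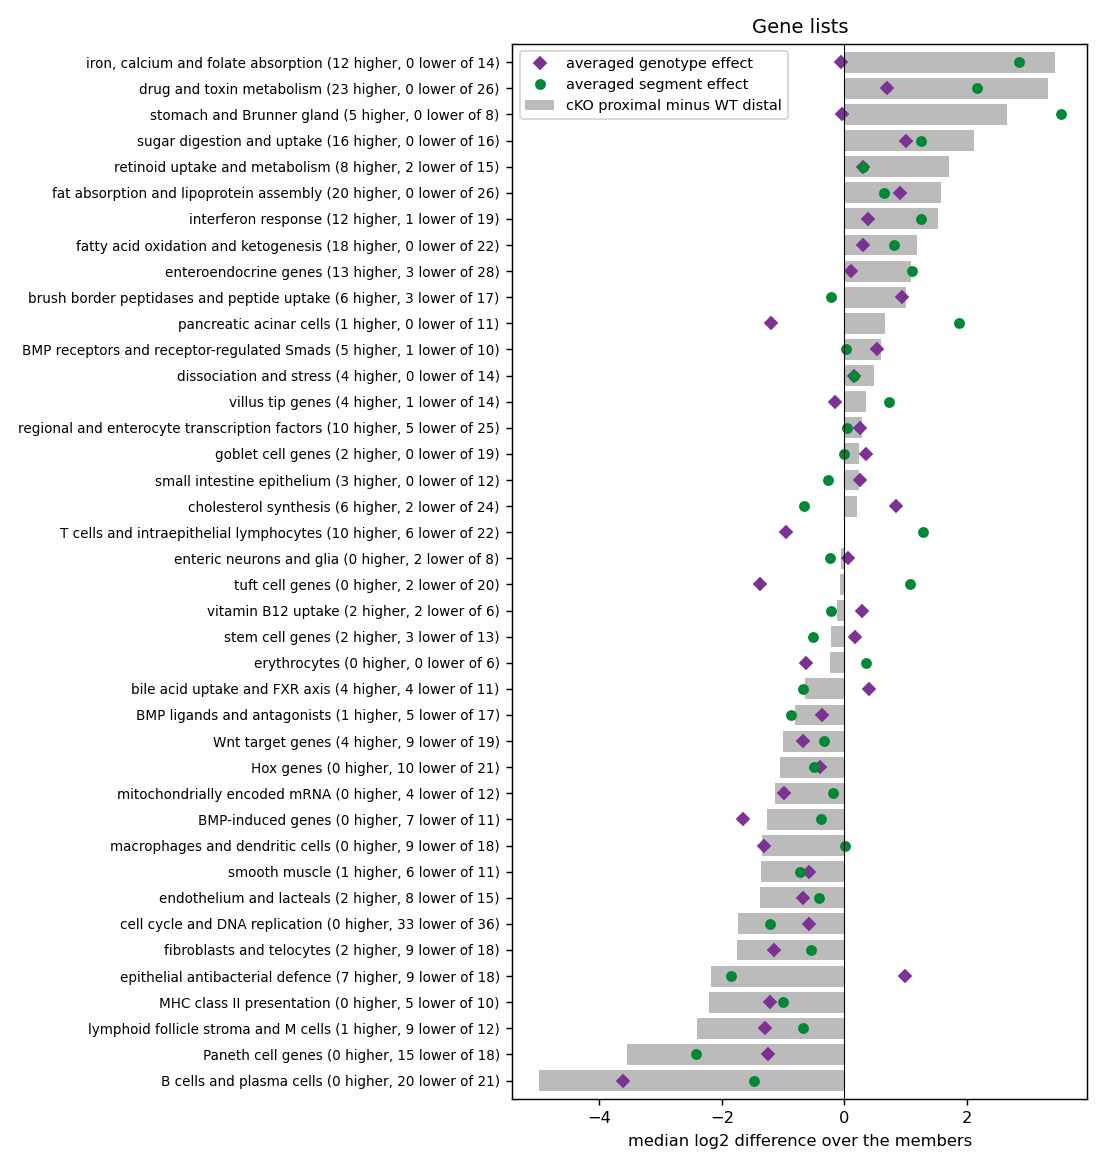
Median log2 difference over the members of each of 40 gene lists (grey bars), with the median of the averaged genotype effect (diamonds) and of the averaged segment effect (circles). For iron, calcium and folate absorption the circle lies near the bar end and the diamond near 0. Diamond and circle lie on opposite sides of 0 for cholesterol synthesis and tuft cells. The same holds for other lists, such as T cells and epithelial antibacterial defence.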

How the data were processed

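RNA-seq of 12 mouse small intestine libraries was analysed from the authors' table of 17175 genes. Trizol served for extraction and Ovation RNA-Seq System V2 for cDNA libraries, per the labels' protocols. The tools and build named are, per the submitters' processing notes, STAR, DESeq2 1.28.1 and mm10. The counting program, its annotation and the filter on genes were not given in the sources used here. The values the authors deposited are a scaled signal. Each of the 206100 values (100.0%) was a whole multiple of 1 step per library within 0.001 steps, so reads were recovered as value divided by step, minus 1, and a gene with 0 reads stands at 1 step. The deposited fold changes and p-values were not used.

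Libraries were grouped by title. The test was limma (3.58.1, R 4.3.3), with its trend option, run on log2(value + 1) and fitted to the means of 4 groups over all 12 libraries, so the spread is shared by all groups. Low values were not filtered, and this scale understates the fold of a gene with few reads. A group at 0 reads was set against a floor of 3 reads per library. On recovered reads edgeR 4.0.16 called 6747 genes and DESeq2 1.42.0 called 7170, as alternatives. Scripts were tested on simulated data.

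Members and the 40 gene lists were chosen with earlier results of these data known, and lists carry no test. Genes were named by rule. These are Bmpr1a, and the 12 highest and 12 lowest differences with a mean of at least 50 and no overlap (predicted genes left out). Under those same limits came the 5 called genes per direction with the largest averaged genotype effect and the 5 with the largest averaged segment effect. Others were up to 5 members per list by smallest p plus members against the list's direction. A further 6 were uncalled genes (adjusted p over 0.5) with a mean of at least 50 whose averaged effects both passed. Eno1, Reg3g and Smad7 were added after their values were seen, and some genes under this rule are not reported here. The Y-linked genes were a check of the libraries. Annotation was GENCODE M21, in which 17158 gene identifiers were found, and promoters came from RefSeq GRCm38.p6, matched by symbol for 183 of 255 named genes.

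Library numbers are shared by the segments of a genotype in the labels, and same-numbered libraries of a genotype correlated at 0.16 to 0.32 in their deviations from group means. Between cKO proximal and WT distal the correlations were -0.03, -0.04 and -0.13, so the numbers do not pair this comparison.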

Additional observations from a re-analysis of the deposited data

How the results depend on the processing

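The count of 6623 genes lay between 5238 and 7170 under the alternatives, except for the added 2-fold limit, which left 4625, and the mitochondrial share as a covariate, which left 2109 (1019 higher, 1090 lower). It was 5238 to 6750 when single libraries were left out, and 5268 without both cKO libraries numbered 1, which had no reads of the Y-linked genes. The averaged genotype effect passed in 1231 genes with the mitochondrial covariate and in 3626 without both cKO libraries numbered 1, in place of 5562, and in 4551 to 6110 without single libraries. The averaged segment effect passed in 4081 to 5043 genes without single libraries, and no alternative moved it by over 1.5 times. The difference in mitochondrial share was -21.64 to -13.96 percentage points without single libraries. Why the covariate lowers the counts was not tested. With the number as a fixed replicate block 6583 genes passed, and with genotype and number as a random block (correlation 0.1952) 6628. The genotype term passed in 5517 and 4682 genes and the segment term in 4944 and 5948. The block ended the calls of 2 and 1 of the 255 named genes.

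The median over all genes, 0.03, became -0.08 with edgeR and -0.09 with DESeq2, and the share of higher genes among those called went from 54.7% to 47.6% with DESeq2. Of the 255 named genes the covariate ended 77 calls with the direction kept. The call of Mylk ended as well, the 1 called gene whose direction turned, from 0.62 to -0.03 (adjusted p = 0.952), and the cause was not tested. The covariate also turned the sign of genes that were not called, such as Reg3b (0.16 to -1.48) and Slc28a2 (-0.41 to 1.23). Depth limits genes with few reads: 257 genes had 0 reads in all 3 cKO proximal and 150 in all 3 WT distal libraries.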
